A study of Mus musculus with 6 samples.

Results

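The 6 receptor tyrosine kinase genes Pdgfra, Pdgfrb, Flt1, Kdr, Tek and Tie1 were followed across 6 RNA-seq libraries of the mouse lung epithelial line MLE12. They were taken by symbol, 6 of the 46078 genes in the deposited count table, and were chosen by their measured levels in these libraries: all 6 for levels unusual in an epithelial line, and Pdgfrb and Flt1 also for their differences between libraries. Those levels and differences are therefore a description, with no test. MLE12 is an immortalised line from mouse lung epithelium, and every library came from it. A confluent layer of the parental, wild-type line was left intact in 1 library and was scraped with a pipette tip and harvested 24 hours later in another. The other 4 libraries came from lines labelled Lingo1 KO, Lingo2 KO, Lingo3 KO and TROY KO, all scratched and harvested at 24 hours. Each group was 1 library. How these lines were made, and whether each was 1 clone, is not given in the sources used here, so genotype, line and library cannot be told apart.

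Receptors of this kind sit in the cell membrane, bind a secreted growth factor outside the cell and, once paired, phosphorylate tyrosines inside it that recruit signalling proteins. Pdgfra and Pdgfrb bind platelet-derived growth factors and are best known in fibroblasts, pericytes and smooth muscle, which answer PDGF released by lung epithelium. Flt1 and Kdr bind vascular endothelial growth factors, and Tek and Tie1 form the angiopoietin receptor system. Those 4 genes are best known in the endothelial lining of blood vessels.

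The libraries held between 28109825 and 30776294 counts assigned to genes. Epithelial transcripts were abundant, with Cdh1 (E-cadherin) at 602 to 992 CPM (counts per 1000000 scaled counts) and Krt19, a keratin, at 1145 to 1492 CPM, while the keratin gene Krt18 had 9 to 14 counts and the surfactant gene Sftpa1 at most 1. The targeted genes did not check the labels. Lingo2 and Lingo3 had 0 or 1 count in all 6 libraries and the TROY gene Tnfrsf19 had 0 to 4. Lingo1 transcript was not lower in the library labelled Lingo1 KO, at 57.0 CPM against 24.5 CPM in the scratched parental library, so that line is named below only by its label. The scratched parental library stood apart in 99 genes, each counted 10 times or more there and reaching 4 times its level in any other library. Of these, 70 were annotated pseudogenes, and Tie1 and the endothelial genes Cdh5, Cldn5, Robo4 and Vwf were among the rest. The library labelled Lingo3 KO stood apart in 71 genes by that rule, Pdgfrb among them, and no other library in more than 1. Because the scratched parental library was also the control for the knockout-labelled lines, each ratio is given against the intact parental library too where that changed its call or direction. Ratios that kept both can still differ in size between the 2 controls.

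The 6 genes lie on 3 chromosomes of the GRCm38 genome. Pdgfra (ENSMUSG00000029231, chr5:75152292-75198215, plus strand) and Kdr (ENSMUSG00000062960, chr5:75932827-75978458, minus strand) flank Kit on chromosome 5. Flt1 (ENSMUSG00000029648, chr5:147561604-147726011, minus strand) lies further along it. Tek (ENSMUSG00000006386, chr4:94739289-94874976, plus strand) and Tie1 (ENSMUSG00000033191, chr4:118471191-118490061, minus strand) are on chromosome 4. Pdgfrb is on another chromosome, beside Csf1r, a related receptor gene. Pdgfra alone shared exon bases with other annotated genes, and all 3 of those, Gm42802, Gm42803 and Mir7025, had 0 counts in every library.

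Promoter windows from 250 bases before to 50 bases after the start site were matched by symbol for 5 of the 6 genes in a RefSeq table (GRCm38.p6). Those of 3 genes are shown, each 5′ to 3′ on its gene's own strand, because these genes had their lowest levels in the parental libraries and the windows differ in make-up. The Flt1 window is chr5:147725962-147726261 (minus strand), the Tek window chr4:94739039-94739338 (plus strand) and the Pdgfra window chr5:75152001-75152300 (plus strand), each reaching from upstream into the first bases of the transcript. Capitals mark the matches to 4 short motifs searched on both strands. The motifs AGGAAG and CCGGAA hold the core that ETS factors bind. The motif AGATAA is read by factors of the Gata family. The motif TATAAA is the TATA box.
Flt1: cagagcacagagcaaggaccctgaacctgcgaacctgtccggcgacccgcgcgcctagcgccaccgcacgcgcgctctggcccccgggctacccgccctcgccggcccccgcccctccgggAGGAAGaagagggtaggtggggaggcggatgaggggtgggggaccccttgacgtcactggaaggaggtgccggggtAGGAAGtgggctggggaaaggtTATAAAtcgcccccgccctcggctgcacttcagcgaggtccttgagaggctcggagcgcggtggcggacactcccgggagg
Tek: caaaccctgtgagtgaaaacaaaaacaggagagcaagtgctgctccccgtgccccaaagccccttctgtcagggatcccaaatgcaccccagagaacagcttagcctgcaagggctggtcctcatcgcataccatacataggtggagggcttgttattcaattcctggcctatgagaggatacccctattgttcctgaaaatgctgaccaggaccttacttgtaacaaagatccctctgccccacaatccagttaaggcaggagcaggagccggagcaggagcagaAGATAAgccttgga
Pdgfra: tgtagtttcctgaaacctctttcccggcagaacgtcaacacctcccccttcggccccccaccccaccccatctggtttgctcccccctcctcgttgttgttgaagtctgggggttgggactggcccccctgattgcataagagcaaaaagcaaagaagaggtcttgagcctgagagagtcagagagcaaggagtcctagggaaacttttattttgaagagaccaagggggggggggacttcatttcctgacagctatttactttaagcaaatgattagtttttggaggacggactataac
The Flt1 window held AGGAAG at -129 and -53 and TATAAA at -31, counted from the start site. Across all 32851 windows in the table, 35.4% held AGGAAG and 13.6% held TATAAA on either strand. The Tek window held AGATAA at 37 bases into the transcript, a motif in 11.2% of all windows, and the Pdgfra window held none of the 4. In the windows not shown, Tie1 had AGGAAG on the opposite strand at -219 and 34, and Kdr had CCGGAA on the opposite strand at -153, a motif in 14.9% of windows. The windows also differed in CpG content, with 29 CpG in Flt1, 19 in Kdr, 7 in Tie1, 5 in Pdgfra and 3 in Tek, against a median of 7 over all windows. A match here is a match of letters, with no measurement of binding behind it.

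To compare levels between genes, CPM was divided by the length of each gene's merged exons. On that scale Tek, the angiopoietin receptor, was the most abundant of the 6 in every library, at 21.5 CPM per kilobase in the intact parental library, 18.3 in the scratched parental library, 39.2 in the library labelled Lingo1 KO, 34.9 in Lingo2 KO, 39.4 in Lingo3 KO and 34.1 in TROY KO. These Tek levels exceeded those of 73.9% to 88.3% of the 12078 tested genes, which averaged 1 CPM or more over the 6 libraries. Among 58 receptor tyrosine kinase genes, a list drawn up after the data had been seen, Tek ranked 6 by mean CPM per kilobase. Flt1 ranked 26, Pdgfrb 32, Pdgfra 33, Kdr 37 and Tie1 39. For Flt1, Kdr and Pdgfra the merged exons (13504, 9030 and 10024 bases) were longer than the lengths implied by the authors' RPKM values (6932, 5925 and 6836 bases), so their levels per kilobase here are on the low side of that alternative.

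**Figure D1:**
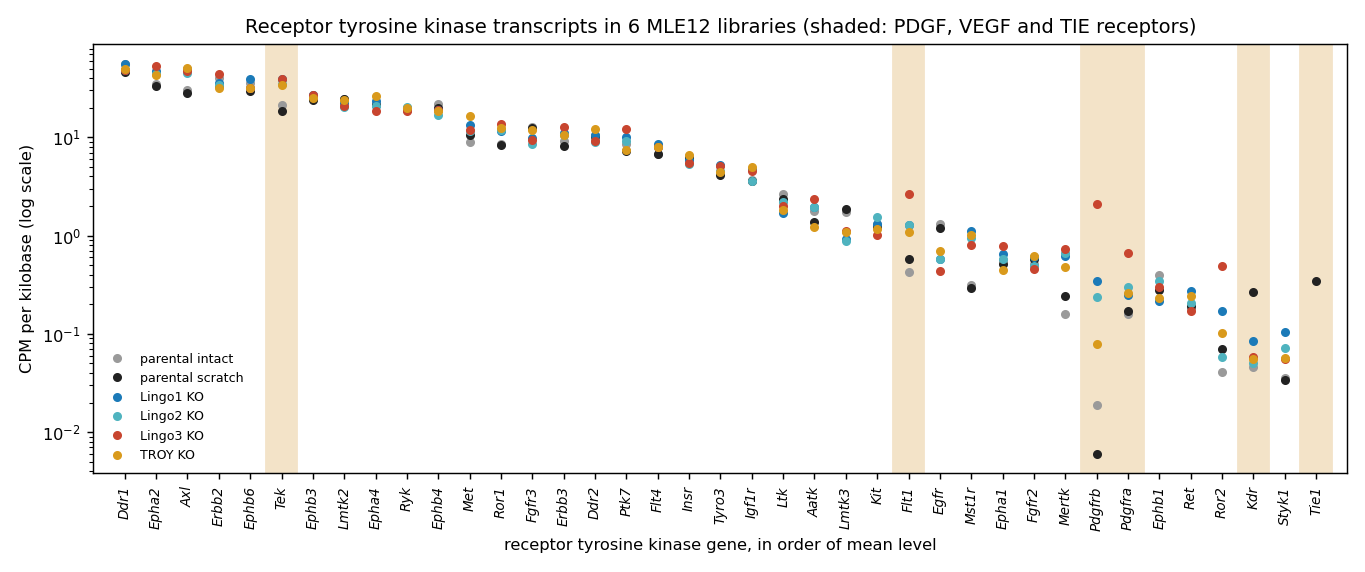
Level of each receptor tyrosine kinase gene in CPM per kilobase of merged exons (log scale), with 1 point per library and genes in order of mean level down to Tie1. Libraries with no counts are not drawn; Tek sits among the most abundant receptors, Pdgfrb spans the widest range of the genes drawn with 6 points, and Tie1 has a single point, the scratched parental library.

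Pdgfra, the receptor for PDGF-A and PDGF-C as well as PDGF-B, was counted 46 times in the intact parental library, 52 times in the scratched parental library, 69 times in the library labelled Lingo1 KO, 86 in Lingo2 KO, 204 in Lingo3 KO and 79 in TROY KO. Scaled to library size these were 1.61, 1.71, 2.49, 3.04, 6.69 and 2.63 CPM. All 4 knockout-labelled libraries lay above both parental libraries, a split found in 24.2% of the 12078 tested genes. Lingo3 KO stood above the rest. Ratios below carry exact 95% Clopper-Pearson intervals, which cover counting error only and not the spread between cultures. A ratio was called higher or lower when it was at least 2-fold and the nearer bound of its interval was beyond 1.5. Against the scratched parental library Pdgfra was 3.91-fold higher in Lingo3 KO (2.87 to 5.42), and 1.46-fold (1.002 to 2.13), 1.78-fold (1.25 to 2.56) and 1.54-fold (1.07 to 2.22) in the libraries labelled Lingo1 KO, Lingo2 KO and TROY KO, which were not called. Of the 15 pairs of libraries, 5 passed the rule for Pdgfra, all of them with Lingo3 KO as the higher library. Among the other 5 libraries no ratio reached 2-fold, the largest being 1.90 (1.31 to 2.77) for Lingo2 KO over the intact parental library. Of the 15 intervals, 11 excluded 1.

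Pdgfrb (ENSMUSG00000024620, chr18:61045150-61085061, plus strand), the receptor for PDGF-B and PDGF-D, was close to absent from the parental line. It was counted 3 times in the intact parental library, 1 time in the scratched one, 52 times in the library labelled Lingo1 KO, 37 in Lingo2 KO, 348 in Lingo3 KO and 13 in TROY KO. The corresponding levels were 0.105, 0.0329, 1.88, 1.31, 11.4 and 0.432 CPM. The knockout-labelled libraries lay above the parental set without overlap, as for 24.2% of tested genes. Pdgfrb entered the list of tested genes only through the knockout-labelled libraries, chiefly Lingo3 KO. The ratio of Lingo3 KO to the scratched parental library was 347, but its denominator was a single count and its interval ran from 61.9 to 13754. Against the 3 counts of the intact parental library the ratio was 109 (37.0 to 531) for Lingo3 KO, 17.9 (5.80 to 89.7) for the library labelled Lingo1 KO and 12.5 (3.96 to 63.4) for Lingo2 KO. For TROY KO the ratio was 13.1 (1.97 to 559) against the scratched parental library, which was called, and 4.13 (1.13 to 22.6) against the intact one, which was not. Within the knockout-labelled lines, where the counts are larger, Pdgfrb in Lingo3 KO was 6.08-fold (4.53 to 8.30), 8.72-fold (6.203 to 12.6) and 26.4-fold (15.2 to 50.1) above the libraries labelled Lingo1 KO, Lingo2 KO and TROY KO. Of the 15 pairs, 12 passed the rule, and the 3 that did not were the parental pair, Lingo1 KO with Lingo2 KO, and TROY KO with the intact parental library.

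Flt1, or VEGF receptor 1, binds VEGF-A, VEGF-B and placental growth factor and is also made as a secreted form, which gene-level counts do not separate from the membrane form. It was counted 166 times in the intact parental library, 239 in the scratched one, 485 in the library labelled Lingo1 KO, 490 in Lingo2 KO, 1095 in Lingo3 KO and 445 in TROY KO. In CPM these were 5.79, 7.86, 17.5, 17.3, 35.9 and 14.8. The knockout-labelled libraries again lay above the parental pair without overlap, as for 24.2% of tested genes. Lingo3 KO was highest and the other 3 were close together. Against the scratched parental library Flt1 was 2.23-fold (1.90 to 2.61), 2.21-fold (1.89 to 2.59) and 4.57-fold (3.97 to 5.28) higher in the libraries labelled Lingo1 KO, Lingo2 KO and Lingo3 KO. In TROY KO the ratio was 1.88 (1.61 to 2.21), short of the rule, but 2.55 (2.13 to 3.07) against the intact parental library, which passed it. Flt1 in Lingo3 KO was also 2.05-fold (1.84 to 2.29), 2.07-fold (1.86 to 2.31) and 2.43-fold (2.17 to 2.72) above the other 3 knockout-labelled libraries. Between the parental libraries the ratio, scratched over intact, was 1.36 (1.11 to 1.66) and was not called.

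Tek, the receptor for angiopoietins, was the deepest-counted of the 6, and counting error is small for it. It was counted 2909 times in the intact parental library, 2630 in the scratched one, 5117 in the library labelled Lingo1 KO, 4648 in Lingo2 KO, 5666 in Lingo3 KO and 4838 in TROY KO, which is 101.5, 86.5, 184.7, 164.5, 185.9 and 160.8 CPM. The 4 knockout-labelled libraries lay within a narrow band above both parental libraries, a split shared by 24.2% of tested genes. Lingo3 KO did not stand apart from the library labelled Lingo1 KO, with a ratio of 1.01 (0.969 to 1.05). Against the scratched parental library the ratios were 2.14 (2.04 to 2.24), 1.90 (1.81 to 1.996), 2.15 (2.05 to 2.25) and 1.86 (1.77 to 1.95) in the libraries labelled Lingo1 KO, Lingo2 KO, Lingo3 KO and TROY KO. Those of the lines labelled Lingo1 KO and Lingo3 KO passed the 2-fold rule. Against the intact parental library they were 1.82, 1.62, 1.83 and 1.58, and none passed it, so the call for Tek rests on which parental library is the control while the direction does not. Scratched over intact was 0.852 (0.808 to 0.898).

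**Figure D2:**
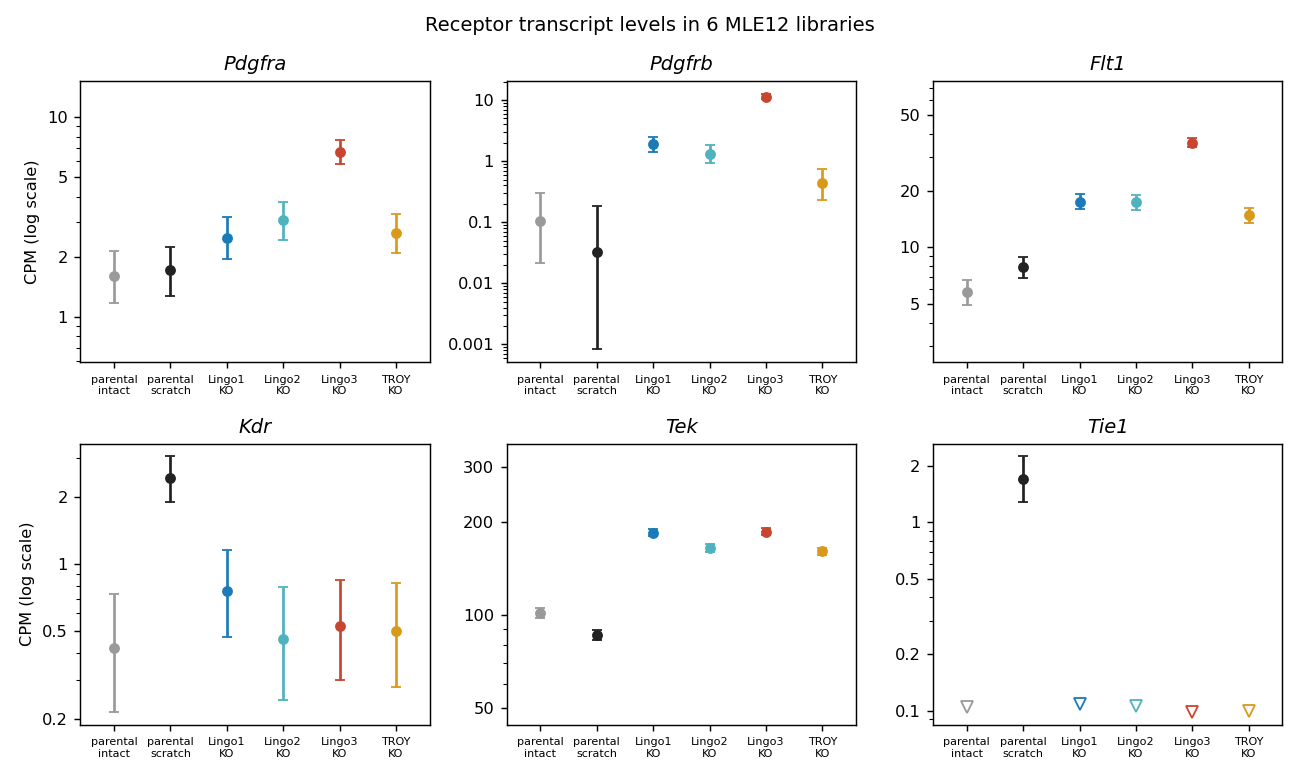
CPM (log scale) of the 6 receptor genes in each library, with bars for exact 95% Poisson intervals, which cover counting error only; open triangles mark the floor of 3 counts where a gene had 0 counts. Pdgfra, Pdgfrb, Flt1 and Tek are higher in the 4 knockout-labelled libraries than in both parental libraries, as are 24.2% of tested genes. Kdr and Tie1 are high in the scratched parental library alone.

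Kdr, or VEGF receptor 2, is the main signalling receptor for VEGF-A in endothelium. It was counted 12 times in the intact parental library, 74 in the scratched one, 21 in the library labelled Lingo1 KO, 13 in Lingo2 KO, 16 in Lingo3 KO and 15 in TROY KO, or 0.419, 2.43, 0.758, 0.460, 0.525 and 0.499 CPM. The scratched parental library alone was high, and the other 5 were not separated from each other in any pair. Tie1, an orphan partner of Tek, had 52 counts in the scratched parental library, or 1.71 CPM, against 0 in the other 5, where a floor of 3 counts corresponds to 0.0984 to 0.108 CPM. Neither gene reached a mean of 1 CPM, so both are outside the 12078 tested genes. With no such filter, scratched over intact was 5.81 (3.13 to 11.7) for Kdr and at least 16.3-fold for Tie1 with 3 counts as the floor of the intact library, the exact 95% interval from its 0 counts beginning at 12.8-fold. In that comparison 0.677% of 21870 genes with counts were called higher.

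The knockout-labelled libraries were lower than the scratched parental library for both genes, but not lower than the intact one. Kdr was 3.21-fold (1.95 to 5.49) lower in the library labelled Lingo1 KO, 5.29-fold (2.91 to 10.4) in Lingo2 KO, 4.64-fold (2.67 to 8.53) in Lingo3 KO and 4.88-fold (2.78 to 9.15) in TROY KO. Without the filter, 2.21%, 1.83%, 2.94% and 1.84% of genes were called lower in these 4 comparisons. Against the intact parental library the Kdr ratios turned to 1.81 (0.850 to 4.04), 1.10 (0.462 to 2.63), 1.25 (0.556 to 2.90) and 1.19 (0.520 to 2.79), and none was called. For Tie1, both the intact parental library and all 4 knockout-labelled libraries were at 0, so no ratio exists.

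Endothelial markers were set beside Kdr and Tie1. Of 14 endothelial markers 4 were measured. Vwf alone was called higher in the scratched than in the intact parental library, where 0.0662% of tested genes were called higher. The median log2 ratio of the 4 was -0.06. Vwf entered the tested genes only through the scratched parental library, at 5.56 CPM there against 0.389 to 1.21 CPM elsewhere, so nothing is read from its call. Over all 14, which leave out the receptors, summed counts were 419 in the scratched parental library, 174 in the intact parental library and 174 to 242 in the knockout-labelled libraries, or 13.8 CPM against 5.88 to 7.94 CPM. Vwf (von Willebrand factor, a clotting protein of endothelium) had 169 counts against 11 to 37 elsewhere. Cdh5 (the endothelial cadherin) had 20 counts against 0 or 1, Robo4 had 23 against 0 or 1, and Cldn5, a tight-junction gene, had 11 against 0 or 1. Esam had 47 counts against 8 to 32, and these 4 genes are under the filter. The list did not move as a whole, since Pecam1 had 8 counts against 4 to 15, Eng had 31 against 27 to 39, Emcn was at 0 and Clec14a was at 0 in all 6 libraries. Among endothelial transcription factors, Erg had 7 counts, Fli1 3 and Sox7 2 in the scratched parental library and 0 elsewhere. The better-counted factors of that list had other patterns, with Gata2 at 69 counts there against 64 to 149 and Klf2 at 24 against 17 to 65. Sox18 had 0 counts there and Etv2 had 0 in all 6 libraries. Postn, a matrix gene of fibroblasts, had 16 counts in that library and 0 in the other 5. The part of other cells or of foreign RNA in these counts was not tested. In bulk RNA, a change in the number of cells of a type and a change in RNA per cell cannot be told apart.

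**Figure D3:**
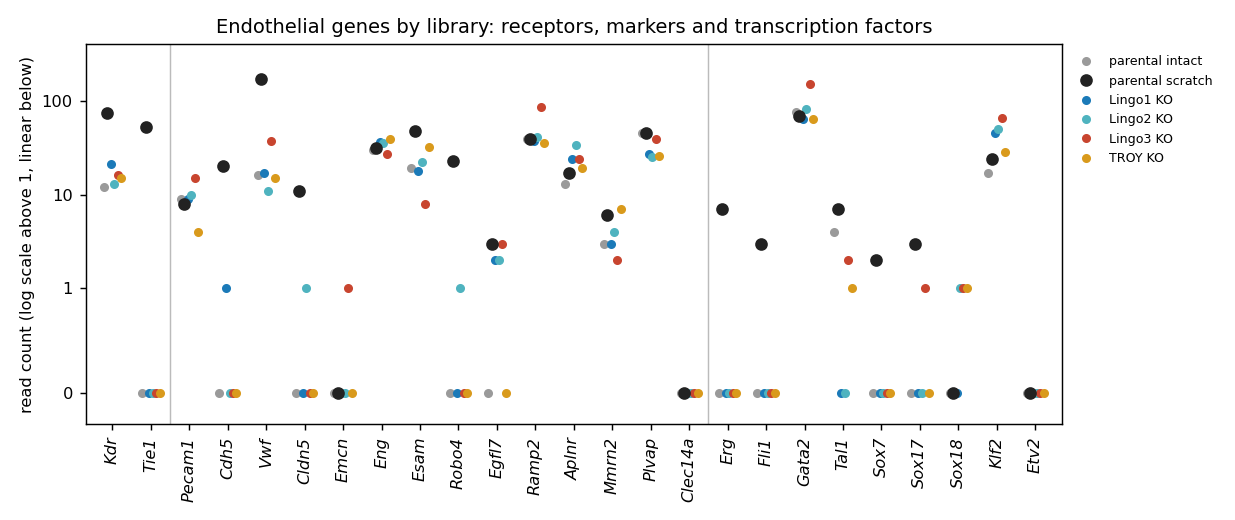
Read counts (log scale above 1, linear below) of Kdr, Tie1, 14 endothelial markers and 9 endothelial transcription factors in the 6 libraries. Kdr, Tie1, Vwf, Cdh5, Robo4 and Cldn5 are highest in the scratched parental library, while Pecam1, Eng and Clec14a are not.

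The calls over the 4 receptors that reached the filter, Pdgfra, Pdgfrb, Flt1 and Tek, differed by line, and all were in the higher direction. None of the 4 was called between the parental libraries, where 0.0828% of the 12078 tested genes were called in either direction. In the library labelled Lingo1 KO, 3 of 4 were higher (Pdgfrb, Flt1 and Tek), beside 1.95% of tested genes. In Lingo2 KO, 2 of 4 were higher (Pdgfrb and Flt1), beside 2.12%. In Lingo3 KO all 4 were higher, beside 4.63%, and in TROY KO Pdgfrb alone was higher, beside 1.06%. Since these contrasts served to choose the genes, nothing is read from the counts. Against the intact parental library, the numbers called higher were 2 of 4 beside 1.8% of genes, 2 of 4 beside 1.84%, 3 of 4 beside 4.31% and 1 of 4 beside 1.24%, in the same order of lines. The median log2 ratio of the 4 to the scratched parental library was 1.13 in the library labelled Lingo1 KO, 1.03 in Lingo2 KO, 2.08 in Lingo3 KO and 0.90 in TROY KO. The median over all tested genes lay between 0.01 and 0.02. The 4 receptors were chosen by their levels in these libraries, so nothing is read from that gap. Levels in all 4 knockout-labelled libraries above both parental libraries were found for these 4 receptors and for 24.2% of tested genes. Pdgfra, Pdgfrb and Flt1 were each called higher in Lingo3 KO than in every other knockout-labelled library. The shares of tested genes called higher were 1.31%, 1.25% and 2.13% against the libraries labelled Lingo1 KO, Lingo2 KO and TROY KO. Pdgfrb and Flt1 were chosen for their differences between libraries, and Pdgfrb passed the filter chiefly through Lingo3 KO. Nothing is therefore read from these calls.

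**Figure D4:**
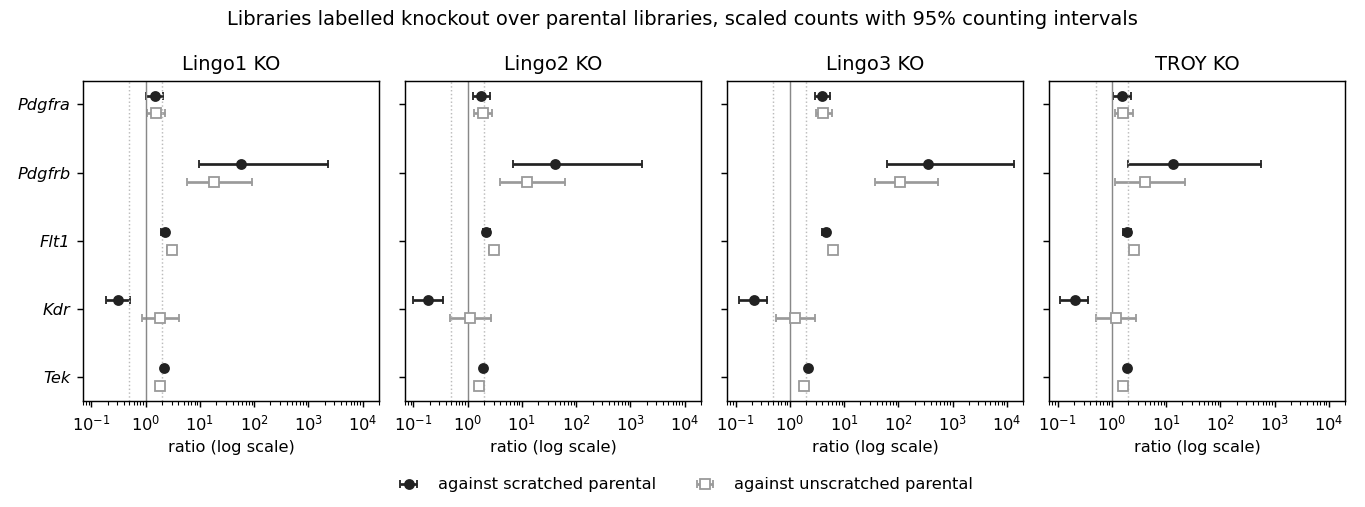
Ratio to a parental library (log scale) of each receptor in the 4 knockout-labelled libraries, with exact 95% counting intervals, shown against the scratched and the intact parental library. Of the 5 receptors drawn, Kdr alone changes direction between the controls; Tie1, with 0 counts in all knockout-labelled libraries, is not drawn.

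In the authors' deposited table, log2 ratios were given for Pdgfra, Flt1, Kdr and Tek and not for Pdgfrb or Tie1. The authors' deposited table listed Flt1 at 1.15, 1.13, 2.18 and 0.89 and Pdgfra at 0.53, 0.82, 1.96 and 0.60 in the libraries labelled Lingo1 KO, Lingo2 KO, Lingo3 KO and TROY KO against the scratched parental line. For Tek the authors' deposited table had 1.09, 0.91, 1.09 and 0.88, and for Kdr it had -1.69, -2.42, -2.22 and -2.31. The scratch column of the authors' deposited table gave 2.55 for Kdr, 0.45 for Flt1, 0.10 for Pdgfra and -0.22 for Tek.

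Of the ligand genes that reached the filter of 1 CPM (called measured below), Vegfd alone was called in a knockout-labelled line. None of the 3 measured PDGF ligand genes was called in any knockout-labelled line: Pdgfa was at 48.1 to 60.1 CPM, Pdgfb at 33.7 to 43.9 CPM and Pdgfc at 1.31 to 2.56 CPM over the 6 libraries. Pdgfd, the ligand of Pdgfrb, had 8 to 24 counts and did not reach the filter. Vegfa, the ligand of Flt1 and Kdr, was at 96.3 to 119 CPM and was not called. Vegfb, which binds Flt1, was at 84.1 and 84.6 CPM in the intact and scratched parental libraries and at 63.2, 68.1, 58.8 and 62.5 CPM in the libraries labelled Lingo1 KO, Lingo2 KO, Lingo3 KO and TROY KO. None of these differences passed the rule. Vegfd, a ligand of the lymphatic receptor Flt4, was at 4.33 and 4.27 CPM in the parental libraries and 1.73, 2.62, 2.10 and 3.03 CPM in the knockout-labelled libraries. It was 2.47-fold (1.76 to 3.51) lower in the library labelled Lingo1 KO, where 1.67% of tested genes were called lower, and 2.04-fold (1.498 to 2.79) lower in Lingo3 KO, just short of the rule. Against the intact parental library Vegfd in Lingo3 KO was 2.06-fold (1.51 to 2.83) lower, which passed it. Vegfc, another Flt4 ligand, stayed under the filter, with 15 and 19 counts in the intact and scratched parental libraries and 1, 8, 6 and 3 in the knockout-labelled libraries. Pgf, a ligand of Flt1, had 4 to 23 counts.

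Transcripts of the angiopoietins, the ligands of Tek, were scarce. Angpt1 had 0 to 3 counts, Angpt2 1 to 12 and Angpt4 0 to 4. Ptprb, the receptor phosphatase that removes phosphate from Tek, was by contrast at 437 and 425 CPM in the intact and scratched parental libraries and at 501, 410, 265 and 545 CPM in the libraries labelled Lingo1 KO, Lingo2 KO, Lingo3 KO and TROY KO. Lingo3 KO was the lowest of the 6, at 0.624 (0.606 to 0.641) of the scratched parental level, which was not called.

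**Figure D5:**
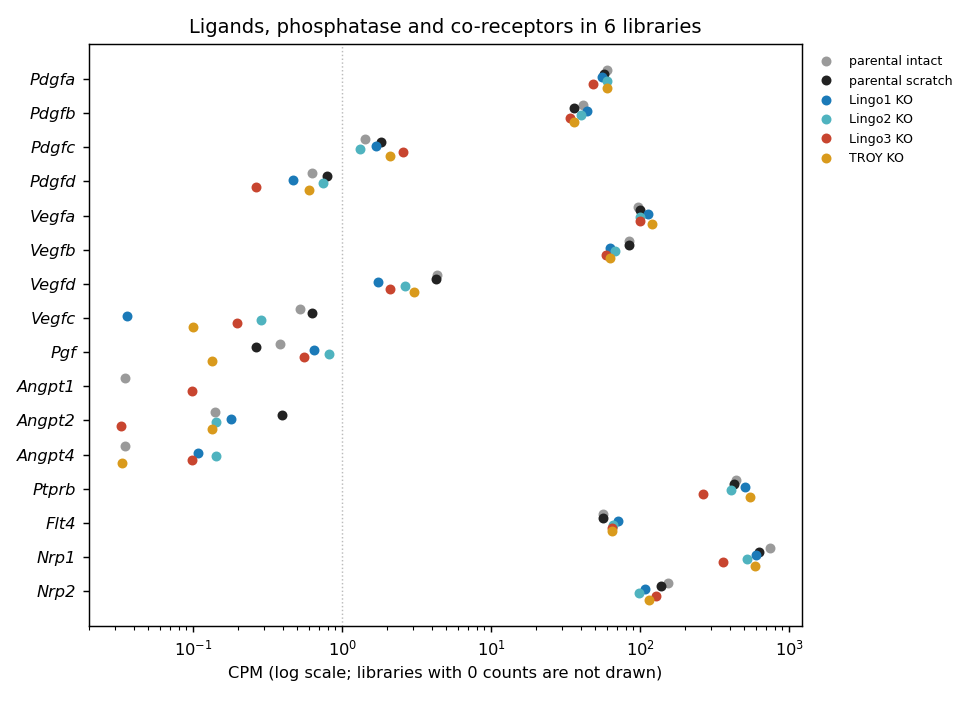
CPM (log scale) of ligands, co-receptors and the Tek phosphatase Ptprb in the 6 libraries. Vegfa, Pdgfa and Pdgfb keep within narrow ranges over the 6 libraries, Nrp1 and Ptprb are lowest in Lingo3 KO, and Vegfd is lowest in the library labelled Lingo1 KO.

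Of 6 related receptors and co-receptors, 4 were measured and none was called against the scratched parental library. Nrp1, a co-receptor for VEGF-A, was at 740 and 628 CPM in the intact and scratched parental libraries and 596, 518, 361 and 587 CPM in the libraries labelled Lingo1 KO, Lingo2 KO, Lingo3 KO and TROY KO. Its ratio in Lingo3 KO was 0.575 (0.562 to 0.589) against the scratched parental library, and against the intact one it was 2.05-fold (2.0001 to 2.09) lower, which passed the rule, as did 2.53% of tested genes in that direction. Flt4, VEGF receptor 3, was at 55.9 to 70.7 CPM and Nrp2 at 97.8 to 154 CPM. Kit, the receptor that lies between Pdgfra and Kdr, was at 8.99 to 13.7 CPM, and Flt3 had at most 1 count.

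Among 4 proteases that process growth factors, only Pcsk5, a proprotein convertase, was called. Its levels were 60.4 and 50.5 CPM in the intact and scratched parental libraries. In the libraries labelled Lingo1 KO, Lingo2 KO, Lingo3 KO and TROY KO they were 23.2, 19.8, 7.22 and 28.3 CPM, lowest in Lingo3 KO. Against the scratched parental library Pcsk5 was 2.17-fold (1.98 to 2.39), 2.54-fold (2.31 to 2.81) and 6.99-fold (6.07 to 8.09) lower in the first 3, where 1.67%, 1.38% and 2.56% of tested genes were called lower. In TROY KO it was 1.78-fold (1.64 to 1.94) lower against the scratched and 2.13-fold (1.96 to 2.32) lower against the intact library, the second of which passed the rule along with 1.01% of tested genes. Furin, Plat and Plau were not called. All 12 genes of the signalling proteins that dock on these receptors, such as Grb2, Plcg1 and Pik3r1, were measured and none was called in any line. The adaptor Shc1 was 1.61-fold (1.55 to 1.67) higher in Lingo3 KO, which was not called.

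Cell-type markers were set beside the PDGF receptors, since both receptors are usual in mesenchyme. Of 10 fibroblast markers, 2 were measured. Col1a1, a collagen chain, was at 62.3 and 44.8 CPM in the intact and scratched parental libraries. In the libraries labelled Lingo1 KO, Lingo2 KO, Lingo3 KO and TROY KO it was at 170, 136, 398 and 146 CPM. Against the scratched parental library it was called higher in all 4, beside 1.95%, 2.12%, 4.63% and 1.06% of tested genes. Dcn (decorin) was at 2532 to 3321 CPM and was not called. Of the others, Col1a2 had 0 to 3 counts, Lum 0 or 1 and Tcf21 0 in every library, while Col3a1 had 62 counts in Lingo3 KO and 0 to 3 elsewhere. In the other direction, Thy1 had 8 counts in Lingo3 KO and 15 to 26 elsewhere, and Fap had 1 there and 12 and 14 in the intact and scratched parental libraries. Of 11 mural cell markers, 3 were measured, with a median log2 ratio of -0.26 in Lingo3 KO. Notch3 was 8.45-fold (4.93 to 15.54) higher there, where 4.63% of tested genes were called higher. Notch3 entered the tested genes only through Lingo3 KO, at 4.17 CPM against 0.493 to 1.10 CPM elsewhere. Tagln was at 1.74 CPM in Lingo3 KO against 2.79 CPM in the scratched parental library and Mcam at 82.8 against 98.9 CPM, neither of them called. Rgs5, Abcc9 and Kcnj8, which mark pericytes, had at most 8, 6 and 1 counts. Other mural markers under the filter had more counts in some lines. Cspg4 had 8 and 6 counts in the intact and scratched parental libraries. In the 4 lines, in the order above, it had 15, 21, 21 and 22. Cnn1 had 6 and 12, then 21, 18, 33 and 13, and Myh11 had 3 and 7, then 9, 11, 16 and 4. Des had 0 to 6 counts and Acta2 0 to 7. Of 7 mesenchymal transcription factors, Twist1 was lower in all 4 lines. Its ratios ran from 12.6-fold (5.13 to 39.9) in the library labelled Lingo1 KO to 3.25-fold (1.97 to 5.58) in TROY KO. In Lingo1 KO, Lingo2 KO, Lingo3 KO and TROY KO, 1.67%, 1.38%, 2.56% and 1.18% of tested genes were called lower. Twist1 entered the tested genes only through the parental libraries, at 2.51 (intact) and 2.27 (scratched) CPM against 0.180 to 0.698 CPM in the 4 lines. Snai1 was higher in the libraries labelled Lingo1 KO (2.09-fold, 1.58 to 2.77) and Lingo3 KO (2.18-fold, 1.67 to 2.87), but against the intact parental library the ratio in the former was 1.94 (1.48 to 2.57) and was not called. Zeb1, Zeb2, Prrx1, Snai2 and Twist2 were not called. Blood cell markers were near 0, with Ptprc at 0 to 3 counts and Adgre1 at 0. Of 9 endothelial transcription factors, Gata2 and Klf2 were measured, and they were 2.15-fold (1.61 to 2.91) and 2.70-fold (1.67 to 4.51) higher in Lingo3 KO, where 4.63% of tested genes were called higher. Against the intact parental library Gata2 in Lingo3 KO was at 1.84 (1.39 to 2.46) and lost its call, while Klf2 was also called in the libraries labelled Lingo1 KO (2.74-fold, 1.54 to 5.10) and Lingo2 KO (2.98-fold, 1.69 to 5.51). Of 10 epithelial markers, 8 were measured, and 2, 3, 3 and 1 were called higher in the libraries labelled Lingo1 KO, Lingo2 KO, Lingo3 KO and TROY KO. The shares of all tested genes called higher in these libraries were 1.95%, 2.12%, 4.63% and 1.06%. With the intact parental library as control, Epcam lost its call in Lingo2 KO (1.92, 1.54 to 2.41) and Lingo3 KO (1.97, 1.58 to 2.46). Sftpc, a surfactant gene of alveolar type II cells, was at 16.5 and 18.3 CPM in the intact and scratched parental libraries and at 40.7, 42.0, 81.9 and 19.8 CPM in those 4. Sftpb, another surfactant gene, was at 40.1 and 35.6 CPM in the parental libraries and at 163.8, 144.4, 164.1 and 87.0 CPM in those 4. The part of any such cell type in the receptor levels was not tested.

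The nearest genes on either side of the receptors were looked up for comparison. Beside Flt1, Pan3 (13102 bases away) was at 67.2 to 80.9 CPM and Pomp (134450 bases away) at 102 to 115 CPM over the 6 libraries. Beside Tek, Ift74 was at 38.6 to 46.7 CPM, and Eqtn had 19 and 16 counts in the parental libraries and 4 to 7 in the knockout-labelled libraries, the opposite order to Tek. Csf1r, 15537 bases from Pdgfrb, had 0 to 7 counts, and Cdx1 on the other side had 0.

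Genes whose levels ran most like each receptor were found by Pearson's r of log2(CPM + 1) over the 6 libraries, among 11285 genes, as a description. For Pdgfrb they were Elf3 (0.998), an epithelial transcription factor, Tfap2b (0.997) and Isyna1 (0.995), and for Pdgfra Efr3b (0.996), Arl4c (0.993) and Alpi (0.993). For Flt1 they were Srxn1 (0.998), Cyp1b1 (0.997) and Sh3bp2 (0.997), and for Tek the chemokine gene Cxcl1 (0.9998), Ier3 (0.9995) and Atp2b4 (0.999). These coefficients share the same 6 libraries and their scaling, and no test was made of them. With 0.1 in place of 1 added to CPM, an alternative chosen after seeing the data, 3 of the 3 genes were again the nearest for Tek, 2 of 3 for Flt1, 1 of 3 for Pdgfra and none for Pdgfrb.

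Other receptor tyrosine kinases were counted by the same rule. Of the 35 measured of 58, those higher against the scratched parental library numbered 5, 4, 6 and 2 in the libraries labelled Lingo1 KO, Lingo2 KO, Lingo3 KO and TROY KO, and those lower 2, 2, 1 and 0. Of those higher, 3, 2, 4 and 1 were the receptors described above. The shares of all tested genes were 1.95%, 2.12%, 4.63% and 1.06% higher and 1.67%, 1.38%, 2.56% and 1.18% lower. Beyond the 4 receptors described, Mst1r, the receptor for macrophage-stimulating protein, was 3.76-fold, 3.23-fold, 2.71-fold and 3.44-fold higher in those lines. Mertk, a receptor of the TAM group, was 2.54-fold, 2.72-fold and 2.99-fold higher in the first 3. Egfr was 2.07-fold, 2.08-fold and 2.73-fold lower in the first 3, and Lmtk3 was 2.01-fold and 2.11-fold lower in the libraries labelled Lingo1 KO and Lingo2 KO. Against the intact parental library Lmtk3 was 1.88-fold and 1.97-fold lower in those 2 libraries and lost both calls, and Mertk in TROY KO, at 3.0003-fold higher, gained a call.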

How the data were processed

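RNA-seq libraries of mRNA were made with the Illumina TruSeq mRNA kit from 6 MLE12 cultures, per the labels' protocols. Trimmomatic (0.39), STAR, HTSeq and edgeR and the GRCm38 build are named in the submitters' processing notes, and whether counting used strand is not stated in them. The authors deposited whole-number counts per gene, with 4.98% to 8.02% of counted reads in the no-feature row, which was left out. The authors also deposited a table of 13559 genes with RPKM values and log2 ratios. It was used to check the counts and is quoted as the authors' own.

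Counts were scaled by TMM (edgeR 4.0.16 in R 4.3.3) to CPM. With 1 library per group no count model was fitted and no p-value is given, and ratios of scaled counts carry exact 95% Clopper-Pearson intervals (scipy 1.17.1), which cover counting error only. Calls needed a mean of at least 1 CPM, a ratio of at least 2 and a nearer bound beyond 1.5. Kdr and Tie1 were under that mean, and their calls used the ratio and bound alone. Ratios against 0 used a floor of 3 counts, 0.0984 to 0.108 CPM. Lengths and neighbours came from GENCODE M21. The genes named are the 6 receptors, the members of the lists of ligands, co-receptors, proteases, docking partners and cell-type markers, the nearest neighbours, and the 3 genes most alike in pattern. The members and lists were chosen with earlier results of these data known. Alternatives were total-count and DESeq2 (1.42.0) scaling, no filter or a filter of 5 CPM, a stricter rule (ratio of at least 3, bound beyond 2), and the intact parental library, alone or summed with the scratched one, as control.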

Additional observations from a re-analysis of the deposited data

How the results depend on the processing

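No paired analysis was possible because each group is 1 library and the labels carry no replicate numbers, and leaving out a replicate could not be done for the same reason. Scaling by total counts or by DESeq2 size factors changed no receptor's call. Over the ratios of the 6 receptors, 112 alternative values kept their direction and call, 6 lost the call, 2 gained it and 4 reversed. Calls of Kdr and Tie1 in this tally were made without the filter. The 4 that reversed were Kdr against the intact parental library, at 1.81, 1.10, 1.25 and 1.19 in the libraries labelled Lingo1 KO, Lingo2 KO, Lingo3 KO and TROY KO. With the parental libraries summed, Kdr in the library labelled Lingo1 KO was 0.521 and lost its call. Tek lost its call against the intact and the summed control, at 1.82 and 1.97 in the library labelled Lingo1 KO and 1.83 and 1.98 in Lingo3 KO. Pdgfrb in TROY KO lost it against the intact control (4.13), and Flt1 in TROY KO gained it against the intact (2.55) and summed (2.16) controls. Kdr was high in the main control, the scratched parental library, with 74 counts against 12 in the intact one. The cause of these changes was not tested.

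Counts of called genes moved with the rule. In the order scratch, Lingo1 KO, Lingo2 KO, Lingo3 KO and TROY KO, 10, 437, 423, 868 and 270 genes were called. Without the filter they were 160, 783, 755, 1487 and 562, with a mean of at least 5 CPM they were 2, 207, 185, 461 and 118, and with the stricter rule they were 4, 143, 126, 364 and 76, which follows from testing more or fewer genes or from the higher threshold. The split of higher and lower calls in the library labelled Lingo1 KO was 235 and 202, but 300 and 483 without the filter and 198 and 238 with total-count scaling. In Lingo2 KO it was 256 and 167, but 351 and 404, and 207 and 200, and in TROY KO 128 and 142, but 158 and 404, and 106 and 172. Of the 3 genes most like each receptor, those shared with the smaller pseudocount numbered 1 for Pdgfra and 0 for Pdgfrb. Depth limited Pdgfrb in the parental libraries, where ratios rest on 1 and 3 counts, and Kdr and Tie1 outside the scratched parental library.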
